A study of Oncorhynchus mykiss with 6 samples.

Results

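The genes of retinoic acid synthesis, breakdown, transport and reception were followed in the dorsal skin of rainbow trout (Oncorhynchus mykiss) with a yellow mutant phenotype, at 90 days and at 1 day of age. They were the rows of the deposited gene table whose symbol, apart from case and a copy ending, was aldh1a2, aldh1a3, cyp26a1, cyp26b1, rara, rarb, rarg, crabp1, crabp2 or rbp4. This gave 35 of 43862 rows, with 2 to 5 rows for each of the 10 gene names. RNA-seq libraries came from total RNA of frozen skin, 3 at day 90 and 3 at day 1, and all 6 came from the yellow mutant, so the comparison is between ages and not between colours. The design text speaks of a series of developmental stages, and stages besides these ages were not analysed here. Whether the libraries of an age came from separate fish is not stated in the labels, so the spread behind each p-value is that between these samples and may be technical.

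Retinoic acid is the active form of vitamin A in the nucleus. Retinol is carried in plasma by retinol-binding protein, oxidised in the cell to retinal and then, by retinaldehyde dehydrogenases of the ALDH1A family, to retinoic acid, which CYP26 enzymes break down. Cellular retinoic acid-binding proteins (CRABP) hold the molecule in the cytoplasm, and retinoic acid receptors (RAR) bind it in the nucleus and control transcription together with retinoid X receptors (RXR). In vertebrates retinoic acid patterns the embryo, and in skin it is known for its part in the differentiation of the epidermis. Salmonid fishes carry extra copies of many genes from whole-genome duplications, and each copy is called here by its deposited symbol and its NCBI gene number.

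Differences lay in the carriers, the breakdown enzymes, the receptors and the balance between copies. A row with the symbol rbp4b, 2 crabp2 copies and 2 rarg copies were higher at day 90 than at day 1. Of the 3 crabp1 copies 2 were lower at day 90 and the third was lower by a call that 4 of 8 alternatives lost. The rarb copies, 3 of 4 cyp26a1 copies, 1 row with the symbol cyp26b1, 1 rara copy and 2 RBP4 rows named purpurin were lower too. Several of them were close to 0. Of these, the rarb copies and 2 of the cyp26a1 copies were too low for the main test. They were called in a fit that kept low genes. The aldh1a2 copies were higher by a margin that some alternatives did not keep, and the aldh1a3 copies did not pass the test.

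Counts were tested with edgeR, and a gene was called when its p-value, adjusted over all genes tested, was under 0.05. Of the 35 rows, 25 had an FPKM (fragments scaled to transcript length and to library size) of at least 1 in at least 3 libraries and were tested. At that filter 11 of the 25 were higher at day 90, 7 were lower and 7 did not pass the threshold. Among all 29436 genes tested, 67.9% were called, with 32.5% of all tested genes higher and 35.4% lower. For 7 of the 25 rows fewer than 3 libraries of 1 age reached the minimum, so the filtered count leans on the age at which they were high. Of these rows 4 had no day 90 library at the minimum, and all 4 are among the lower calls. In a fit without the filter, which covers all 35 rows, 11 were higher, 14 were lower and 10 did not pass the threshold, against 27.3% higher and 33.6% lower of 42269 genes. Read against these shares, neither count sets the retinoic acid genes apart, and the set as a whole was not tested. The median log2 fold change of the 35 rows was -0.07, and that of all genes in the same fit was -0.14. For the 25 rows at the filter the median stood further above that of all genes tested, at 0.35 against -0.03. With library size alone it was -0.04 against -0.43.

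The scale matters for the small changes. With the TMM factors of edgeR the median log2 fold change of all tested genes was -0.03, and with library size alone, the scale on which FPKM values are set, it was -0.43. On that scale 6 of the 25 rows were called higher and 10 lower, where 70.8% of all genes tested were called, 20.2% higher and 50.6% lower. Without day 1 replicate 3 the higher count was 7. Of the 11 higher calls 5 were kept in every alternative that tested them, and so were 7 of the 7 lower calls, of which 4 were not tested at FPKM of at least 5. The 5 were RARG 110491992, RARG 110494234, crabp2 110520876, crabp2 110496016 and rbp4b 100136008. FPKM values of the ages did not overlap for 22 of the 35 rows, 5 with day 90 above and 17 with day 90 below, while 18.6% and 50.5% of all genes with a count lay above and below. Of the 25 tested rows 5 lay above and 10 below, where 75.2% of all genes tested did not overlap, 22.3% above and 52.9% below.

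**Figure D1:**
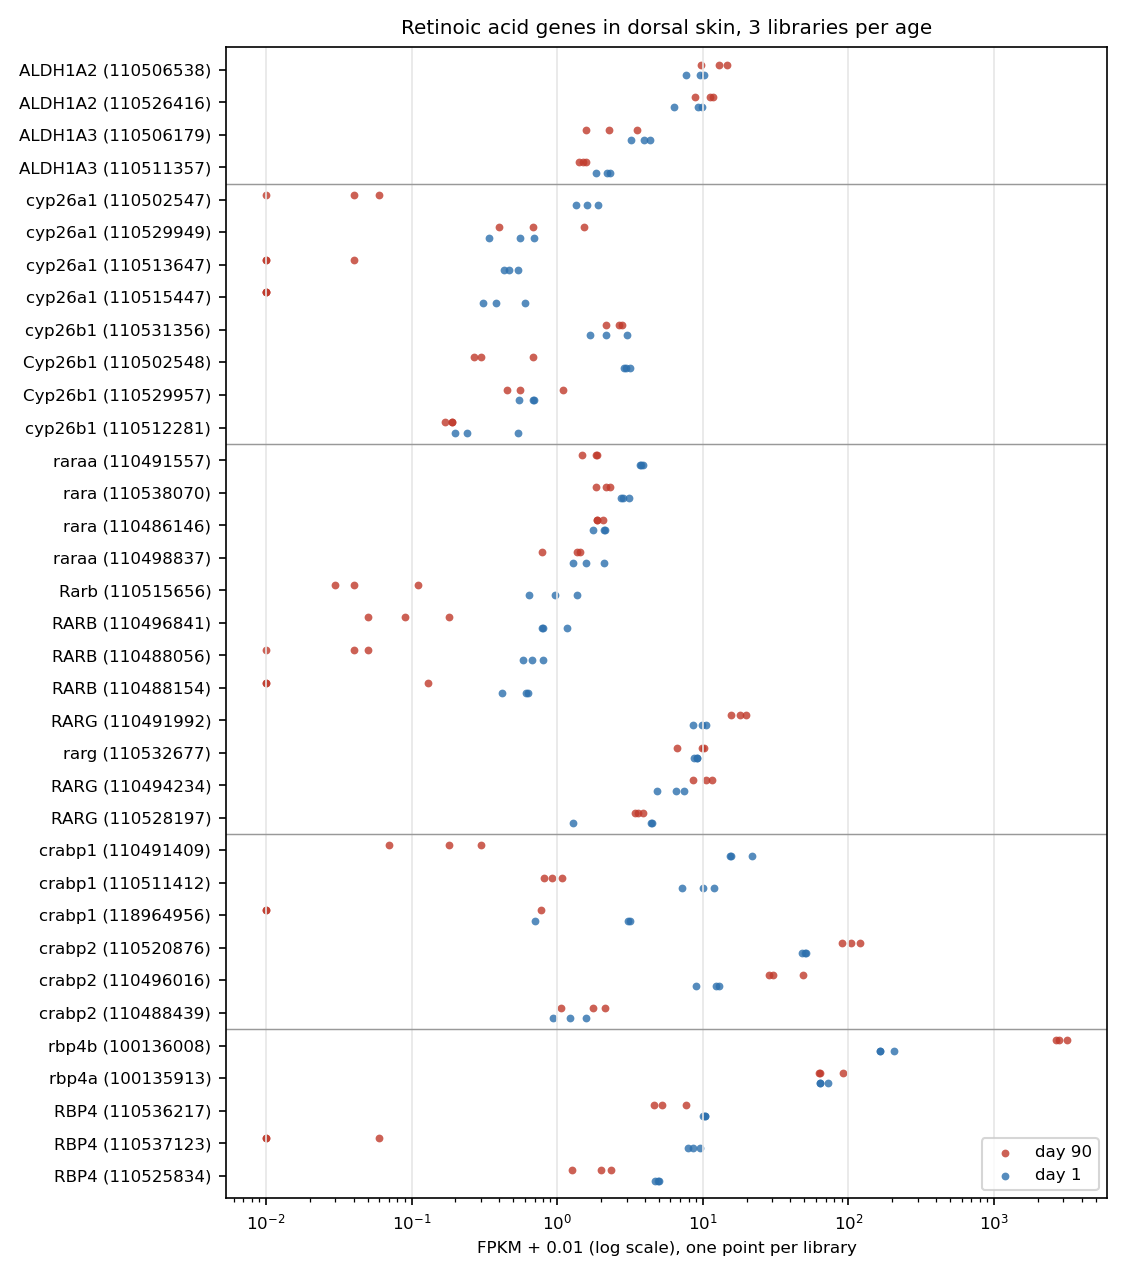
FPKM + 0.01 on a log scale for each of the 35 rows, 1 point per library, red for day 90 and blue for day 1; lines separate synthesis, breakdown, receptors, carriers in the cell and carriers in plasma. The rbp4b row lies highest, at 2654 to 3175 FPKM at day 90 and 165 to 205 FPKM at day 1. At day 90 the rarb rows, crabp1 110491409, cyp26a1 110502547 and RBP4 110537123 lie far left of their day 1 points. The rbp4b row stands among the carriers in plasma by its symbol alone, as its product name is retinol-binding protein 2.

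Total counts ran from 16157312 to 18960866 per library. Summed FPKM of epidermis markers was 780 to 1077 at day 90 and 176 to 221 at day 1, with 19 of 22 tested rows higher, and that of dermis and scale markers was 22517 to 24604 and 2507 to 3449, with 25 of 29 higher, so markers of the labelled tissue were present at both ages. Liver and yolk markers summed to 130 to 147 FPKM at day 90 and 1084 to 1945 FPKM at day 1, with 25 of 27 rows lower. Of their 12 marker names 9 were under 0.5 FPKM in every day 90 library, with fga and fgb at 0. Lens and retina markers summed to 4.31 to 5.29 FPKM at day 90 and 2784 to 3517 FPKM at day 1, with 50 of 51 rows lower, and 15 of 18 marker names were under 0.5 FPKM in every day 90 library. Neural markers summed to 267 to 290 FPKM at day 90 and 1043 to 1176 FPKM at day 1, with 26 of 29 rows lower and neurod1 at 0 at day 90. Muscle markers stood at 6828 FPKM in day 90 replicate 1, apart from 2002 and 1857 FPKM in day 90 replicates 2 and 3, while day 1 libraries held 13067 to 16493 FPKM. In every day 1 library the lens and retina, liver and yolk, neural and muscle sums each lay above the epidermis sum. An age difference in these bulk libraries therefore cannot be assigned to skin alone. The part of these marker differences in the results on retinoic acid genes was not tested. In bulk tissue fewer cells of a type and less RNA per cell cannot be told apart.

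Synthesis was led by aldh1a2, the main retinaldehyde dehydrogenase of vertebrate embryos. ALDH1A2 110506538 had 12.99, 14.64 and 9.70 FPKM in the day 90 libraries, against 10.26, 9.62 and 7.62 FPKM in the day 1 libraries. Day 90 replicates 1 and 2 lay above every day 1 library, but day 90 replicate 3 lay within their range. Its counts gave a log2 fold change of 0.84 ± 0.17 (SE, n = 3 per age; edgeR adjusted p = 0.0021). The other copy, ALDH1A2 110526416, had 11.77, 11.18 and 8.79 FPKM at day 90 and 9.21, 9.82 and 6.31 FPKM at day 1. Here too the third day 90 library overlapped with day 1, and the log2 fold change was 0.72 ± 0.18 (SE; edgeR adjusted p = 0.0063). The call was lost for this copy with library size alone, where the log2 fold change was 0.31, and for both copies in the limma fits of FPKM. The copy 110506538 held 52.5%, 56.7% and 52.5% of their summed FPKM at day 90 and 52.7%, 49.5% and 54.7% at day 1, and these shares overlapped. Summed FPKM averaged 23.0 ± 3.96 at day 90 and 17.6 ± 3.19 at day 1 (SD, n = 3; exact permutation p = 0.3, two-sided). For 3 libraries against 3 the smallest p this exact test allows is 0.1. Sums of FPKM stand on the scale of library size, where the median log2 fold change of all tested genes was -0.43.

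The aldh1a3 copies, which encode a retinaldehyde dehydrogenase known in vertebrate embryos from the eye and nose, stood lower than aldh1a2. ALDH1A3 110506179 had 1.57, 2.27 and 3.51 FPKM at day 90, against 3.92, 4.32 and 3.19 FPKM at day 1. The third day 90 library overlapped with day 1 and the other two lay below it. The log2 fold change was -0.27 ± 0.24 (SE; edgeR adjusted p = 0.337), and without day 90 replicate 3 it was -0.61 and passed the threshold. ALDH1A3 110511357 had 1.57, 1.41 and 1.49 FPKM at day 90 and 2.29, 2.19 and 1.84 FPKM at day 1. These groups did not overlap, yet the log2 fold change with TMM was -0.11 ± 0.17 (SE; edgeR adjusted p = 0.605), and with library size alone it was -0.51 and was called lower. Summed over the 2 copies, aldh1a3 averaged 3.94 ± 0.957 FPKM at day 90 and 5.92 ± 0.782 FPKM at day 1 (SD, n = 3; exact permutation p = 0.1). That sum is on the scale of library size, and with TMM neither copy was called.

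**Figure D2:**
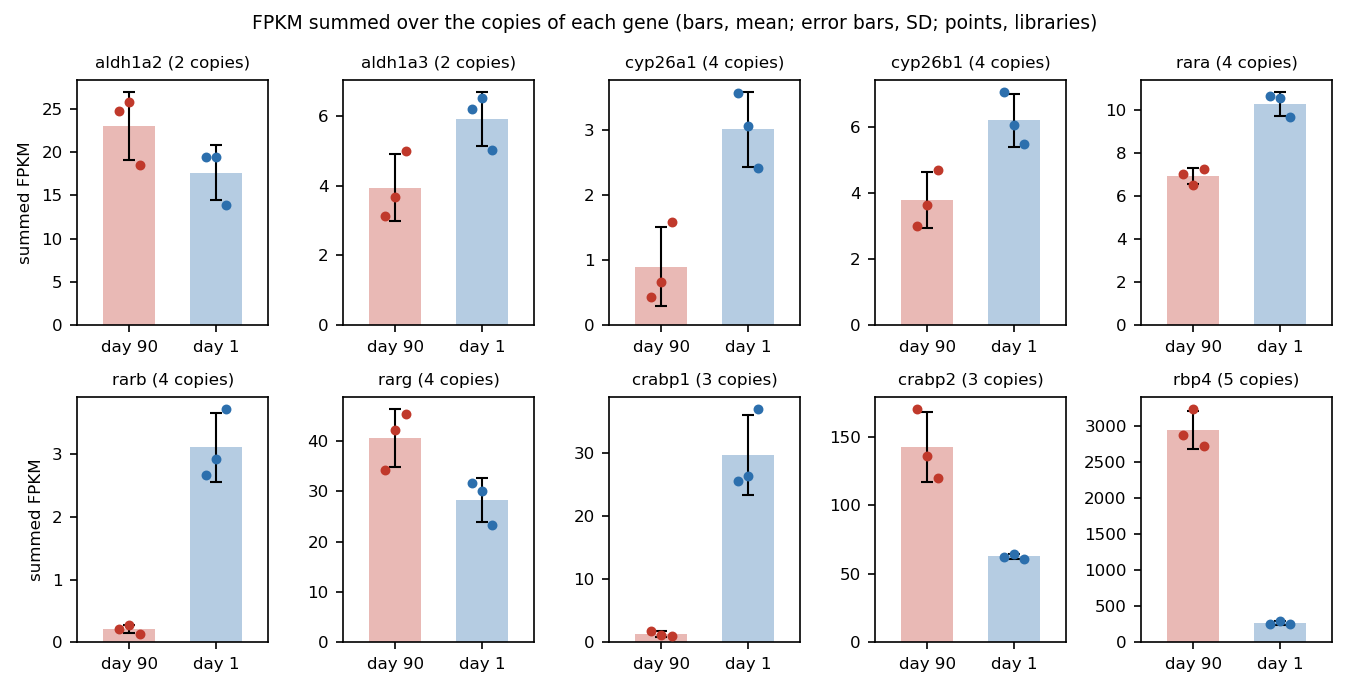
FPKM summed over the rows of each gene name at day 90 (red) and day 1 (blue); bars are means, error bars SD, points the 3 libraries of an age. Sums for rarb and crabp1 lie near the axis at day 90, those for cyp26a1 are 0.44 to 1.59 FPKM at day 90 against 2.42 to 3.57 FPKM at day 1, crabp2 reaches 120 to 170 FPKM at day 90 against 61.0 to 64.5 FPKM at day 1, and the rbp4 panel is carried by the rbp4b row, which holds 96.5% to 97.9% of it at day 90.

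Breakdown genes were lower at day 90 in part of their copies. The enzyme cyp26a1, which oxidises retinoic acid and is itself a known target of retinoic acid receptors, was carried by different copies at the 2 ages. cyp26a1 110502547 had 0.05, 0 and 0.03 FPKM at day 90, from 2, 0 and 1 counts, against 1.90, 1.59 and 1.33 FPKM at day 1, from 69, 58 and 50 counts. All day 1 libraries lay far above all day 90 libraries. Normalised counts were 43.4 times as high at day 1 as at day 90 (exact 95% interval 14.6 to 212, counting error only), and the copy was called lower by edgeR (adjusted p = 1.31e-05). Its fitted log2 fold change of -5.30 was -6.16 without day 90 replicate 1.

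The remaining cyp26a1 copies were too low for the filter, and their tests come from the fit without it. cyp26a1 110513647 had 0, 0 and 0.03 FPKM at day 90 and 0.53, 0.42 and 0.46 FPKM at day 1, a day 1 level 37.5 times the day 90 level (interval 6.44 to 1510; edgeR adjusted p = 0.000588). cyp26a1 110515447 had no count in any day 90 library, against 0.59, 0.37 and 0.30 FPKM at day 1 from 22, 14 and 12 counts. Against a floor of 3 counts over the age, it was at least 11.8-fold lower at day 90 (edgeR adjusted p = 0.000949). In both, every day 1 library stood above every day 90 library.

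The fourth copy, cyp26a1 110529949, did not pass the test. It had 0.39, 0.67 and 1.53 FPKM at day 90, from 16, 24 and 53 counts, and 0.55, 0.68 and 0.33 FPKM at day 1, from 21, 26 and 13 counts. The groups overlapped, with the third day 90 library highest of the 6. The log2 fold change was 1.12 ± 0.47 (SE; edgeR without the filter, adjusted p = 0.0618), and without day 90 replicate 1 it was 1.43 and called higher, while without day 90 replicate 3 it was 0.45. It held 88.6%, 100% and 96.2% of summed cyp26a1 FPKM at day 90, against 15.4%, 22.2% and 13.6% at day 1 (exact permutation p = 0.1). The sum over the 4 copies was 0.44, 0.67 and 1.59 FPKM at day 90 and 3.57, 3.06 and 2.42 FPKM at day 1, so the ages did not overlap.

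A like split was seen among the rows with the symbol cyp26b1, the name of another retinoic acid hydroxylase. Cyp26b1 110502548 had 0.26, 0.29 and 0.67 FPKM at day 90, against 3.15, 2.85 and 2.95 FPKM at day 1. The ages were far apart, and the copy fell by 2.50 ± 0.29 on the log2 scale (SE; edgeR adjusted p = 5.07e-05). In the gene table of a trout assembly this copy lies next to cyp26a1 110502547, the tested cyp26a1 copy that was lower too, with 0 genes between them. cyp26b1 110531356 had 2.16, 2.63 and 2.76 FPKM at day 90 and 3.03, 2.15 and 1.67 FPKM at day 1. These values overlapped, the log2 fold change was 0.53 ± 0.19 (SE; edgeR adjusted p = 0.0346), and this call was kept in 5 of 13 alternatives. It held 71.5%, 72.1% and 58.8% of summed cyp26b1 FPKM at day 90, against 42.8%, 35.4% and 30.4% at day 1.

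The 2 low cyp26b1 rows did not pass the test without the filter. Cyp26b1 110529957 had 0.44, 0.55 and 1.08 FPKM at day 90 and 0.67, 0.54 and 0.68 FPKM at day 1 (log2 fold change 0.54, edgeR adjusted p = 0.16). It is the neighbour of cyp26a1 110529949, again with 0 genes between them. Thus 1 pair of neighbours was lower at day 90 at both rows, and in the other pair neither row passed the test. The difference between the pairs was not tested. cyp26b1 110512281, whose product name marks it as a low quality protein model, had 0.16 to 0.18 FPKM at day 90 and 0.19 to 0.53 FPKM at day 1 (edgeR adjusted p = 0.514). Summed cyp26b1 FPKM was 3.02, 3.65 and 4.69 at day 90 and 7.08, 6.07 and 5.49 at day 1. The sum is on the scale of library size, and with TMM 1 of the 4 rows was called lower and 1 higher. No row of the table carried the symbol cyp26c1. The rows beside cyp26a1 rows, 110502548 and 110529957, have the product name cytochrome P450 26B1-like, and none of the 4 cyp26b1 rows has a named symbol in RefSeq. Whether these neighbours are copies of cyp26b1 or another CYP26 gene cannot be said from the names. The split and the sum for cyp26b1 rest on the deposited symbols.

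**Figure D3:**
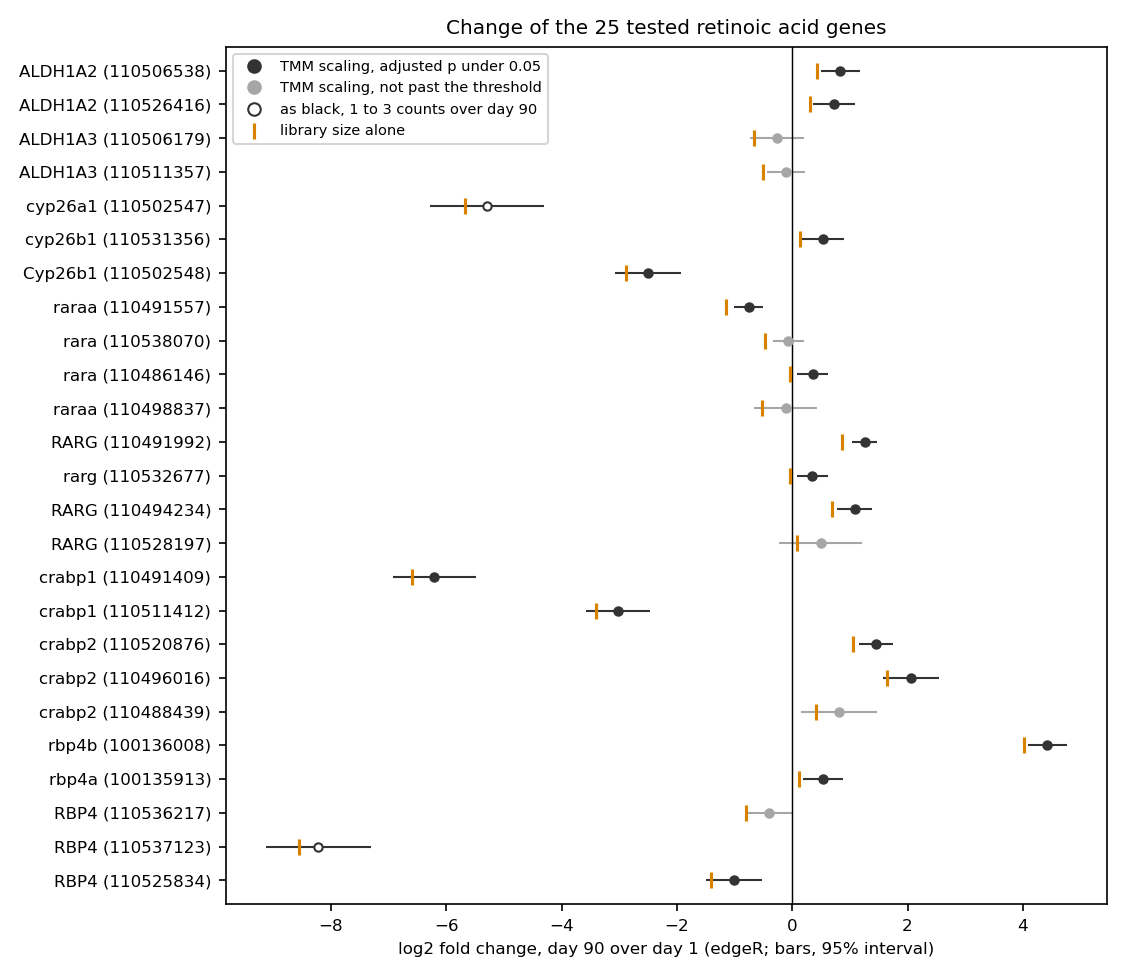
Log2 fold change of day 90 over day 1 for the 25 tested rows, with bars for an approximate 95% interval. The bars take the standard error and a normal quantile, so they can be narrower than the edgeR test implies. The bar of RBP4 110536217 stops short of the line of no change, though its edgeR adjusted p is 0.105. Black points passed the threshold, grey points did not, and open points rest on 1 to 3 counts over day 90. Orange ticks give the value with library size alone. The orange ticks lie left of the points in every row. Points for rbp4b at 4.42 and for the crabp1 rows at -6.21 and -3.02 lie far from the vertical line of no change.

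The receptors divided by subtype. RAR gamma, a receptor known to prevail in mammalian skin, was the most abundant subtype at both ages. RARG 110491992 had 15.66, 18.16 and 19.68 FPKM at day 90, against 10.55, 9.80 and 8.53 FPKM at day 1. Every day 90 library lay above every day 1 library, and the log2 fold change was 1.25 ± 0.11 (SE; edgeR adjusted p = 7.79e-06). RARG 110494234 had 8.53, 10.60 and 11.63 FPKM at day 90 and 7.46, 6.59 and 4.83 FPKM at day 1. Again the ages did not overlap (log2 fold change 1.09 ± 0.15 SE; edgeR adjusted p = 0.000185). Both copies were higher at day 90 in all 14 alternatives.

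The 2 further rarg copies gave no firm difference. The copy rarg 110532677 had 6.69, 9.83 and 10.18 FPKM at day 90 and 9.10, 9.14 and 8.67 FPKM at day 1, with day 90 libraries on both sides of day 1. Its log2 fold change was 0.35 ± 0.14 with TMM (SE; edgeR adjusted p = 0.0491) and -0.04 with library size alone, and the call was kept in 2 of 14 alternatives. RARG 110528197 had 3.39, 3.61 and 3.88 FPKM at day 90 and 4.43, 4.48 and 1.28 FPKM at day 1 (log2 fold change 0.49 ± 0.37 SE; edgeR adjusted p = 0.256). Here day 1 replicate 3 stood apart below the other 5 libraries. Summed over copies, rarg had 34.3, 42.2 and 45.4 FPKM at day 90, against 31.5, 30.0 and 23.3 FPKM at day 1.

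RAR alpha, the broadly expressed subtype, was lower in 1 of its 4 copies in all 13 alternatives that tested it. The copy raraa 110491557 had 1.47, 1.84 and 1.88 FPKM at day 90, against 3.68, 3.77 and 3.89 FPKM at day 1. All day 1 libraries lay above all day 90 libraries, and it fell by 0.75 ± 0.13 on the log2 scale (SE; edgeR adjusted p = 0.00061). rara 110538070 had 2.28, 1.85 and 2.15 FPKM at day 90 and 2.83, 3.13 and 2.75 FPKM at day 1. Those FPKM values did not overlap, but the TMM log2 fold change was -0.07 ± 0.14 (SE; edgeR adjusted p = 0.667), and the copy was called lower with library size alone.

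The last 2 rara copies overlapped between the ages. rara 110486146 had 1.86, 2.07 and 1.87 FPKM at day 90 and 2.08, 2.11 and 1.76 FPKM at day 1. It was called higher with TMM (log2 fold change 0.36 ± 0.14 SE; edgeR adjusted p = 0.0452), the sign turned with library size alone (-0.04), and the call was kept in 1 of 13 alternatives. raraa 110498837 had 1.42, 0.78 and 1.35 FPKM at day 90 and 2.09, 1.58 and 1.27 FPKM at day 1 (log2 fold change -0.11 ± 0.28 SE; edgeR adjusted p = 0.736). Summed rara FPKM averaged 6.94 ± 0.363 at day 90 and 10.3 ± 0.559 at day 1 (SD, n = 3; exact permutation p = 0.1). The sum is on the scale of library size, and with TMM 1 of the 4 copies was called lower and 1 higher.

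RAR beta, whose gene is a known direct target of retinoic acid, was close to 0 at day 90. All 4 rarb copies were below the filter and all were called lower in the fit without it, as well as in each of the 8 alternatives to that fit. Rarb 110515656 had 0.02, 0.10 and 0.03 FPKM at day 90, against 0.63, 0.95 and 1.36 FPKM at day 1 (log2 fold change -3.97 ± 0.59 SE; edgeR adjusted p = 0.000194). RARB 110496841, whose product name is that of a RAR alpha-A, had 0.04, 0.17 and 0.08 FPKM at day 90 and 0.78, 0.79 and 1.16 FPKM at day 1 (log2 fold change -2.83 ± 0.40 SE; edgeR adjusted p = 0.00015). In each of these copies every day 1 library lay above every day 90 library. Without day 90 replicate 2, which held most of their day 90 counts, the log2 fold changes were -4.94 for 110515656 and -3.45 for 110496841. The copy 110488056 was at 0.04, 0 and 0.03 FPKM at day 90 and 0.66, 0.57 and 0.79 FPKM at day 1, a day 1 level 22.1 times as high (exact 95% interval 7.31 to 109; edgeR adjusted p = 0.000194). RARB 110488154 had 0.12, 0 and 0 FPKM at day 90, from 6, 0 and 0 counts, against 0.60, 0.62 and 0.41 FPKM at day 1 (edgeR adjusted p = 0.00628). These ages did not overlap either. The 4 copies together had 0.22, 0.27 and 0.14 FPKM at day 90 and 2.67, 2.93 and 3.72 FPKM at day 1.

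Shares of the receptor subtypes differed between the ages without overlap. FPKM summed over all 12 receptor rows averaged 47.8 ± 5.72 at day 90 and 41.7 ± 4.39 at day 1 (SD, n = 3; exact permutation p = 0.3). Of that sum rarg held 82.5%, 86.1% and 86.0% at day 90, against 70.3%, 68.9% and 63.5% at day 1. The share of rara was 16.9%, 13.3% and 13.7% at day 90 and 23.8%, 24.3% and 26.3% at day 1. That of rarb was 0.530%, 0.551% and 0.265% at day 90 and 5.95%, 6.73% and 10.1% at day 1. Subtypes go by symbol here, and RARB 110496841 has the product name of a RAR alpha-A. It held 18.2%, 63.0% and 57.1% of rarb FPKM at day 90 and 29.2%, 27.0% and 31.2% at day 1. Counted as rara, it would change the shares of rara and rarb but not that of rarg. The exact permutation p was 0.1 for each subtype, the smallest possible, so the design cannot take these shares past 0.05. These shares are sums within a library, so they do not depend on the scaling between libraries.

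**Figure D4:**
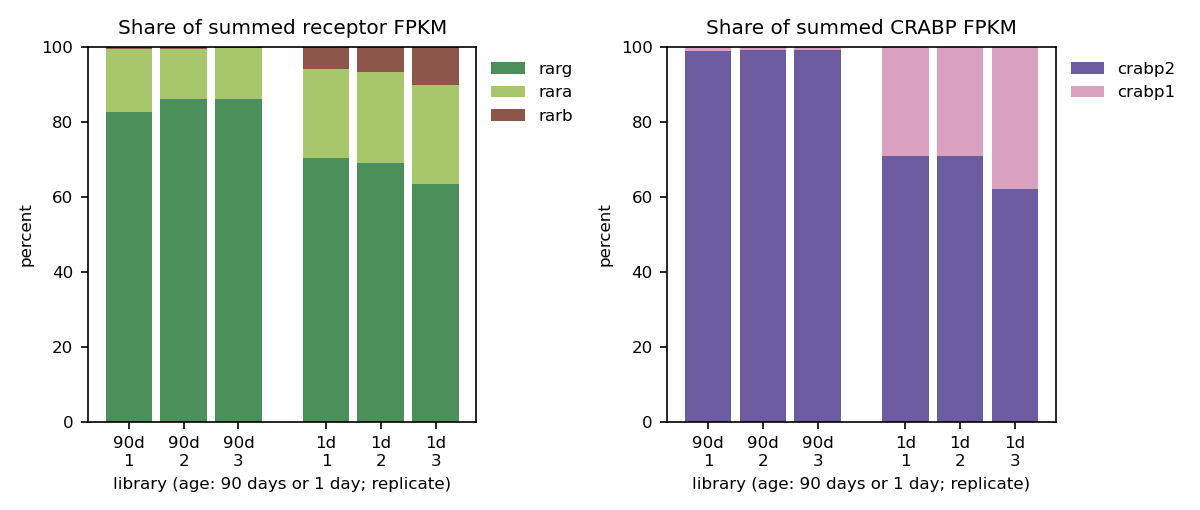
Share of summed FPKM in each library, in percent, by receptor subtype as given by the symbol (left) and by CRABP (right). The 3 day 90 libraries stand left of the 3 day 1 libraries in each panel. The rarb part includes RARB 110496841, whose product name is that of a RAR alpha-A. The rarg share is 82.5% to 86.1% in day 90 libraries and 63.5% to 70.3% in day 1 libraries; the crabp1 share is 0.801% to 1.08% in day 90 libraries and 29.1% to 37.8% in day 1 libraries.

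Carriers inside the cell went opposite ways. CRABP1 is known in embryos from neural tissue and mesenchyme and CRABP2, in mammals, from skin, where it delivers retinoic acid to the receptors. crabp1 110491409, named crabp1a in RefSeq, had 0.29, 0.17 and 0.06 FPKM at day 90, against 15.35, 15.70 and 21.90 FPKM at day 1. The ages were far apart, and the copy fell by 6.21 ± 0.37 on the log2 scale (SE; edgeR adjusted p = 6.53e-07). Without day 90 replicate 1 the log2 fold change was -6.90. crabp1 110511412 had 0.80, 1.07 and 0.91 FPKM at day 90 and 7.22, 10.02 and 11.99 FPKM at day 1. It was lower in every day 90 library and fell by 3.02 ± 0.28 on the log2 scale (SE; edgeR adjusted p = 1.1e-05). The low copy crabp1 118964956 had 0.77, 0 and 0 FPKM at day 90, from 12, 0 and 0 counts, and 3.06, 0.69 and 3.14 FPKM at day 1, from 43, 10 and 46 counts. Its ages overlapped, and its call in the fit without the filter (edgeR adjusted p = 0.0411) was lost in 4 of 8 alternatives, among them those without day 90 replicate 2 and without day 90 replicate 3. The neural markers, at 267 to 290 FPKM at day 90 and 1043 to 1176 FPKM at day 1, moved the same way as crabp1, and their part in it was not tested.

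Of the 3 crabp2 copies, 2 were higher at day 90. crabp2 110520876, named crabp2a in RefSeq, had 119.59, 103.69 and 90.61 FPKM at day 90, against 48.38, 50.65 and 51.04 FPKM at day 1. Every day 90 library lay above the narrow day 1 range, with a log2 fold change of 1.46 ± 0.15 (SE; edgeR adjusted p = 2.2e-05). crabp2 110496016 had 48.85, 30.42 and 28.41 FPKM at day 90 and 12.97, 12.29 and 9.01 FPKM at day 1. Day 90 replicate 1, the library with the most muscle marker RNA of the 3 at that age, was the highest. The log2 fold change was 2.06 ± 0.24 (SE; edgeR adjusted p = 5.59e-05), and without that library it was 1.70. Muscle markers were at 1857 to 6828 FPKM at day 90 and 13067 to 16493 FPKM at day 1. Their part in the level of this copy was not tested. crabp2 110488439, named crabp2b in RefSeq, was low, at 1.75, 2.13 and 1.05 FPKM at day 90 and 1.21, 1.56 and 0.93 FPKM at day 1. Its values overlapped and it did not pass the threshold (log2 fold change 0.81 ± 0.34 SE; edgeR adjusted p = 0.0575).

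Summed over copies, crabp1 had 1.86, 1.24 and 0.97 FPKM at day 90 and 25.6, 26.4 and 37.0 FPKM at day 1. The sum for crabp2 was 170, 136 and 120 FPKM at day 90 and 62.6, 64.5 and 61.0 FPKM at day 1. Thus crabp2 held 98.9%, 99.1% and 99.2% of CRABP FPKM at day 90, against 70.9%, 70.9% and 62.2% at day 1 (exact permutation p = 0.1). Epidermis markers, 780 to 1077 FPKM at day 90 and 176 to 221 FPKM at day 1, were higher at day 90 like crabp2. So were dermis and scale markers, at 22517 to 24604 FPKM against 2507 to 3449 FPKM. In day 90 replicates 1, 2 and 3 crabp2 stood at 170, 136 and 120 FPKM and epidermis markers at 780, 927 and 1077 FPKM. Dermis and scale markers stood at 22517, 24604 and 22911 FPKM there. An order of 3 libraries is too short to relate crabp2 to either set. The part of either marker set in the crabp2 difference was not tested.

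The rows called rbp4 joined unlike genes. The row with the symbol rbp4b, 100136008, carries the product name retinol-binding protein 2 and is rbp2 in RefSeq, a name that belongs to a retinol carrier inside cells known from the intestine, so it cannot be said from the names whether it is a copy of the plasma carrier. It had 2785, 3175 and 2654 FPKM at day 90, against 166, 205 and 165 FPKM at day 1. Every day 90 library was far above every day 1 library, and its log2 fold change was 4.42 ± 0.17 (SE; edgeR adjusted p = 7.64e-08). By mean FPKM it was the gene at rank 12 of the whole table at day 90 and at rank 403 at day 1. It took 0.262%, 0.298% and 0.249% of all counts at day 90 and 0.0153%, 0.0185% and 0.0155% at day 1.

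The row rbp4a, 100135913, is rbp4 in RefSeq and encodes the retinol carrier of plasma, in mammals a product of the liver. It had 91.88, 62.67 and 64.23 FPKM at day 90, against 63.71, 72.46 and 63.45 FPKM at day 1. Day 90 replicate 1 stood above the rest and the other two day 90 libraries lay just below or inside the day 1 range. The log2 fold change was 0.53 ± 0.18 with TMM (SE; edgeR adjusted p = 0.0253), 0.26 without day 90 replicate 1 and 0.12 with library size alone, and the call was kept in 7 of 14 alternatives. Liver and yolk markers were at 130 to 147 FPKM at day 90 and 1084 to 1945 FPKM at day 1. The day 90 sum came from few genes, as 9 of 12 marker names were under 0.5 FPKM in every day 90 library. The part of liver and yolk markers in the level of rbp4a was not tested.

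The other 3 rows with the symbol RBP4 have the product name purpurin, a secreted relative of the plasma carrier known from the retina of chick and fish. RBP4 110537123, rbp4l in RefSeq, had 0, 0.05 and 0 FPKM at day 90, a single count, against 7.88, 8.62 and 9.54 FPKM at day 1. All day 1 libraries were far above all day 90 libraries, the day 1 level being 391 times that of day 90 (exact 95% interval 69.9 to 15481; edgeR adjusted p = 5.1e-07). Its fitted log2 fold change was -8.22, and -10.32 without day 90 replicate 2, the library with that count. RBP4 110525834 had 1.98, 1.26 and 2.32 FPKM at day 90 and 4.71, 4.97 and 4.92 FPKM at day 1. Day 90 was below day 1 throughout, with a log2 fold change of -1.005 ± 0.25 (SE; edgeR adjusted p = 0.00529). RBP4 110536217 had 7.71, 5.26 and 4.63 FPKM at day 90 and 10.35, 10 and 10.31 FPKM at day 1. These FPKM ranges did not overlap, but with TMM the log2 fold change of -0.40 ± 0.20 did not pass the threshold (SE; edgeR adjusted p = 0.105), and the row was called lower in 5 of 14 alternatives. The 3 purpurin rows together had 9.69, 6.57 and 6.95 FPKM at day 90 and 22.9, 23.6 and 24.8 FPKM at day 1. Lens and retina markers were lower at day 90 as well, at 4.31 to 5.29 FPKM against 2784 to 3517 FPKM at day 1. Their part in the difference of the purpurin rows was not tested.

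In the authors' deposited table, 9 of the 35 rows had an FDR under 0.05 with day 90 above day 1, and 14 had one with day 90 below, while 55.7% of the whole table was under that FDR, 23.5% above and 32.3% below. The 14 include rarg 110532677, at a log2 fold change of -0.0113 in the authors' deposited table, against 0.35 with TMM. Direction was read from the sign of the deposited log2 fold change, which may be on another scale than the FDR. There cyp26b1 110531356 had an FDR of 0.0279 at 0.14, and ALDH1A3 110511357 one of 0.759 at -0.50. The direction of rows with small changes, and the shares above and below, are therefore less certain. For rbp4b the deposited FDR was 1.31e-238, with a log2 fold change of 4.01. In the authors' deposited table crabp1 118964956 was not under 0.05, with an FDR of 0.247. Copies of 1 gene can share reads, and no source used here states how reads that match several copies, or either strand, were counted. Levels of single copies are therefore uncertain, and sums over copies may be affected as well.

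Around these members, 109 rows of other retinoid genes were counted, 65 of them tested. Of the 65, 24 were higher at day 90, 23 lower and 18 not past the threshold, with a median log2 fold change of -0.12, against -0.03 over all genes tested. These counts stand near the 32.5% higher and 35.4% lower of all genes tested. On the scale of library size 10 of them were called higher and 32 lower, where 20.2% and 50.6% of all genes were. Transport and storage genes gave 5 higher and 4 lower calls of 9, retinol and retinal conversion 8 and 5 of 21, RXR 4 and 2 of 9, corepressors and coactivators 3 and 6 of 14, and known targets 4 and 6 of 12. On the scale of library size the targets gave 0 higher and 8 lower calls. Symbols in this list can go against the product name: 1 called CDX1 row is named as steroid receptor RNA activator 1.

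The 2 transport genes with the smallest adjusted p were cellular retinol carriers. Rbp7 110494664, a retinol-binding protein of the cytoplasm, had 148, 150 and 157 FPKM at day 90, against 3.11, 3.78 and 4.03 FPKM at day 1 (log2 fold change 5.76 ± 0.15 SE; edgeR adjusted p = 1.94e-08). Rbp7 110527800 had 23.0, 22.3 and 21.9 FPKM at day 90 and 3.33, 3.85 and 3.16 FPKM at day 1 (log2 fold change 3.09; edgeR adjusted p = 1.38e-07). In both, day 90 lay above day 1 without overlap, as it did for rbp4b. Rdh11 110535416, a retinal reductase in mammals, had 41.9, 50.5 and 41.8 FPKM at day 90 and 2.67, 1.81 and 1.27 FPKM at day 1 (log2 fold change 4.93; edgeR adjusted p = 1.26e-07). ALDH1A1 110535799, a further retinaldehyde dehydrogenase, had 0.05, 0.04 and 0 FPKM at day 90 and 1.57, 1.67 and 1.47 FPKM at day 1. It fell (edgeR adjusted p = 5.7e-06), unlike the aldh1a2 copies.

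Among the partners of the receptors, rxrga 110508859 had 5.58, 5.64 and 5.61 FPKM at day 90 and 2.04, 2.03 and 2.92 FPKM at day 1 (log2 fold change 1.66 ± 0.19 SE; edgeR adjusted p = 3.92e-05). The copy rxraa 110509348 had 4.02, 5.14 and 5.22 FPKM at day 90 and 3.73, 3.43 and 2.38 FPKM at day 1 (log2 fold change 0.97; edgeR adjusted p = 0.000411). Day 90 was above day 1 in both. Summed FPKM over all 10 RXR rows was 49.19 to 65.18 at day 90 and 78.45 to 82.63 at day 1. That sum is on the scale of library size, where the median log2 fold change of all tested genes was -0.43. With TMM 4 of the 9 tested RXR rows were called higher and 2 lower. Of the cofactors, Nrip1 110533676, a corepressor, fell by 1.498 and NCOA1 110522275, a coactivator, fell by 1.17 on the log2 scale (edgeR adjusted p = 3.55e-05 and 6.05e-05). Of genes known to respond to retinoic acid, Meis2 110505709, a homeobox factor, had 1.03, 1.35 and 1.48 FPKM at day 90 and 13.8, 12.2 and 13.9 FPKM at day 1 (log2 fold change -2.96; edgeR adjusted p = 1.02e-07). MEIS1 110529791, with the product name Meis2-like, had no count at day 90 and 7.69, 7.56 and 9.83 FPKM at day 1, at least 305-fold lower at day 90 against a floor of 3 counts over the age (edgeR adjusted p = 8.63e-07).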

How the data were processed

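RNA of dorsal skin from the yellow mutant was sequenced at 90 days and 1 day of age, 3 libraries each, with ages and replicate numbers taken from the titles. The submitters' processing notes name Bowtie2 2.2.8 and TopHat2 2.1.1 but no role for either. The counting tool, strand setting and genome build: not given in the sources used here, and no coordinate is printed. Per the file headers, the table holds counts (whole numbers) and FPKM values for every library, as deposited by the authors. A log2 fold change and an FDR, which is an adjusted p-value, also stand in the authors' deposited table, by a test that no source used here names. All 35 gene numbers matched the RefSeq gene table of assembly USDA_OmykA_1.1, used for names and neighbours alone; 9 had a named symbol there.

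Genes with FPKM of at least 1 in at least 3 of 6 libraries entered a quasi-likelihood fit of their counts in edgeR 4.0.16 (R 4.3.3), with TMM factors and age as the sole term, over the whole table. P-values were adjusted after Benjamini and Hochberg, and 0.05 was the threshold. A fit without the filter covered all 35 rows. A standard error is the log2 fold change divided by the root of F. Where an age had 1 to 3 counts, a ratio with an exact 95% binomial interval is given; with none, a bound against a floor of 3 counts over the age. Per library, 3 counts make up 1.58e-05% to 1.86e-05% of the total. Such intervals and floors cover counting error alone. Sums and shares of FPKM were compared by exact two-sided permutation over libraries (SciPy 1.17.1). Alternatives were library size alone, median of ratios, no filter, FPKM of at least 5, a replicate block, leaving out each library, DESeq2 1.42.0, limma 3.58.1 on log2(FPKM + 1) and log2(FPKM + 0.1), and rows whose product name names the gene. The scripts were tested on simulated data.

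The members, lists and tests were chosen with earlier results of these data known. The fits of the unfiltered table without single libraries, with library size alone and with the replicate block were added after seeing the data, and chance matches of 3 short marker symbols were dropped once seen. Every tested row is named; of the other retinoid genes, up to 2 per role with the smallest adjusted p are named.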

Additional observations from a re-analysis of the deposited data

How the results depend on the processing

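The 7 lower calls kept their direction and their side of the threshold in every alternative that tested them, as did 5 of the 11 higher calls. In some alternatives 6 higher calls were lost. Among only the rows whose product name names the gene, 10 were higher and 5 lower. That count leaves out rbp4b and the 2 called purpurin rows, so it does not bear on their calls. Of the 7 lower rows 4 had no day 90 library at the filter minimum and entered through day 1, where they were high. The count of higher retinoic acid genes, 11, was 6 with library size alone, 7 with FPKM of at least 5, 7 with the replicate block, 5 in each of the 2 limma fits and 7 to 10 when single libraries were left out. The count of lower genes, 7, was 14 without the filter, 4 with FPKM of at least 5, 11 with limma on log2(FPKM + 1) and 7 to 8 without single libraries. These counts have unlike bases: 25 rows at the main filter, 35 without it and fewer at FPKM of at least 5. A smaller count at FPKM of at least 5 is therefore not a smaller share. Of all genes, 4706 were higher and 5036 lower of 13460 tested at FPKM of at least 5. Limma on log2(FPKM + 1) called 6084 higher and 14949 lower of 29436, and the fit without the filter 11552 and 14221 of 42269. Fitted without a filter, the 11 higher genes were 6 with library size alone and 7 to 11 without single libraries, and the 14 lower genes were 17 with library size alone and 13 to 15 without single libraries. Of the other retinoid genes, the 24 higher were 10 with library size alone, 12 with FPKM of at least 5, 12 in each limma fit and 19 to 22 without single libraries; the 23 lower were 42 without the filter, 10 with FPKM of at least 5 and 21 to 24. All genes called, 19982, were 9742 with FPKM of at least 5, where fewer genes are tested, and 17925 to 19892 without single libraries. The sign of rara 110486146 turned, with values of -0.0427 with library size alone and -0.0231 and -0.0323 with limma, and so did that of rarg 110532677, with -0.0405, -0.0297 and -0.0350. With library size alone the median log2 fold change of all genes was -0.43, against -0.03 with TMM, and the higher share of all calls was 28.5%, against 47.9%; in the limma fits that share was 28.9% and 28.8%. Same-numbered libraries did not deviate together (correlations -0.0778, 0.00552 and -0.105), but with 3 libraries per age this cannot exclude a pairing by number. With the replicate block 18555 genes were called. Depth limits most rarb and cyp26a1 copies at day 90, which rest on few counts, less so cyp26a1 110529949 with 93 counts and RARB 110496841 with 34.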
